A study of Homo sapiens with 4 samples.

Results

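The 37 genes of pyruvate oxidation, the TCA cycle and anaplerosis were looked up by symbol in the tables of an RNA sequencing study of HN12 cells. They were members of a named list that follows the carbon of pyruvate into mitochondria and round the cycle, and all 37 were found among the 26726 genes listed. HN12 is a head and neck squamous cell carcinoma (HNSCC) line. Cells in which ATAD3A, a mitochondrial membrane ATPase, had been disrupted by CRISPR/Cas9 (KO) were compared with parental HN12 cells (WT), with 2 libraries in each group. The guide was aimed at the sixth exon, and KO clones were grown from single cells. The clone or clones behind the KO libraries are not named in the sources used here, so a feature of a clone and an effect of the disruption cannot be told apart. All cells carried the HN12 background. The labels give DMEM with 10% FBS and antibiotics as the medium, and the methods of the study give a mixture of DMEM with another medium. The 2 libraries of a group came from independent cultures, and p-values measure the spread between such cultures.

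Pyruvate made by glycolysis enters mitochondria through a carrier of MPC1 and MPC2. The pyruvate dehydrogenase complex then turns it into acetyl-CoA, a step that kinases (PDK) switch off and phosphatases (PDP) switch back on. The TCA cycle oxidizes the acetyl group and passes the electrons to NADH and, at succinate dehydrogenase, to ubiquinone. Anaplerosis refills the cycle, through pyruvate carboxylase or from glutamate, while malic enzymes draw malate out of it and return pyruvate and NADPH or NADH. Several of these steps have a cytosolic and a mitochondrial isozyme encoded by separate genes.

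The libraries held between 13569971 and 18943547 counts on genes, and 15104 genes passed the filter on low counts. ATAD3A counts were 702 and 492 in the KO libraries and 1802 and 1471 in the WT libraries. Its level was 3.25-fold lower in KO cells (log2 fold change -1.70, SE 0.09, adjusted p 1.53e-17 by the quasi-likelihood test of edgeR, adjusted by Benjamini-Hochberg), and reads of the gene were still counted in both KO libraries. All 9 squamous epithelial markers tested were expressed, and their summed level was 4750 and 4730 CPM, a count scaled to the library total, in KO and 2020 and 2030 CPM in WT libraries. Of these markers 5 were higher and 4 were lower in KO cells, so that all 9 were called, against 39.5% of all tested genes. KRT5 was the largest part of the KO sum, with a mean of 2450 CPM in KO and 396.1 CPM in WT libraries. KRT14 had means of 691.2 and 150.8 CPM, and KRT17, KRT6A and SFN were also higher. TP63, DSG3, CDH1 and EPCAM were lower, so the sum does not describe every marker. Of the fibroblast, leukocyte and endothelial markers, 4 of 6, 3 of 5 and 3 of 4 were found in the tables. Their sums were 12 and 14.9 CPM in KO against 16.6 and 12.8 CPM in WT for fibroblasts, and at most 3.96 CPM in any library for the other lists, with overlapping ranges in each. PTPRC held between 1 and 9 counts and COL1A2 between 0 and 2, while COL3A1 and CDH5 were at 0 in at least 1 library. Other markers of these lists were counted in every library. COL1A1 held between 159 and 228 counts and made up most of the fibroblast sum. CD14 held between 39 and 62, VWF between 12 and 27 and PDGFRB between 8 and 32. The part of these differences in the results was not tested.

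Of the 37 genes, 36 could be tested and PDK4 could not. In KO cells 9 of the 36 were higher (25%) and 6 were lower (16.7%) at an adjusted p under 0.05. Over all tested genes the shares were 20.4% higher and 19.1% lower. Called genes thus made up 41.7% of the tested members against 39.5% of all genes, a share near that background. The median log2 fold change was 0.09 over the members and 0.00 over all genes, with members running from -1.13 to 0.64. Both KO libraries lay outside the range of both WT libraries for 26 of the 36 members, against 68.1% of all tested genes. With library totals in place of TMM factors the members split into 8 higher and 9 lower, and all genes into 2510 higher and 3613 lower against 3074 and 2891 with TMM factors. A change in RNA per cell and a change in the share of cells of one kind cannot be told apart in these bulk samples.

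The 9 genes that rose were PDHA1, IDH2, IDH3B, IDH3G, DLST, SDHA, FH, MDH2 and PC, and the 6 that fell were MPC2, PDK1, IDH1, ME1, ME2 and GOT2. By step, 4 of 9 genes rose between citrate and succinyl-CoA, or 3 of 9 with GC and length offsets. Between fumarate and oxaloacetate 2 of 3 rose. Of these 2, FH had an edgeR adjusted p of 0.0494 and was not called with DESeq2 (adjusted p 0.146). Of the 6 genes of anaplerosis, malic enzymes and glutamate entry, 3 fell and 1 rose. None of the 3 succinyl-CoA ligase genes and neither PDP gene passed the threshold. Over all tested genes 20.4% rose and 19.1% fell, and the steps hold few genes each. With GC and length offsets 2672 genes rose and 2397 fell among all genes. No test was made of whether the steps differed from each other.

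**Figure D1:**
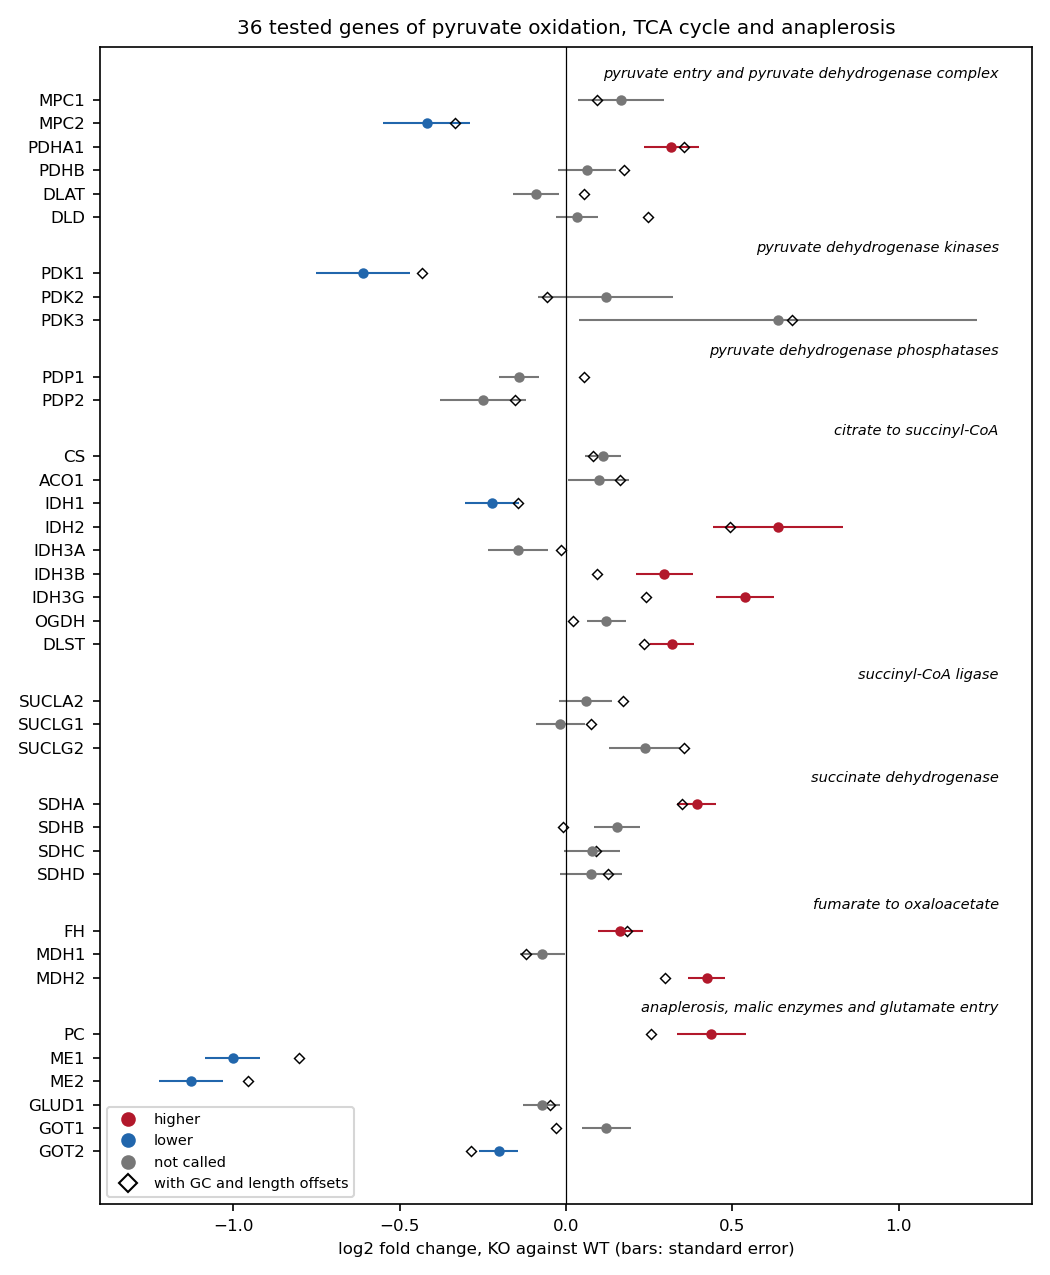
Log2 fold change of each tested gene in KO against WT cells, by step, with bars for the standard error and open diamonds for the value after GC and length offsets. ME1 and ME2 lie farthest to the left, at -1.0 and -1.13, while the genes higher in KO cells lie between 0.16 and 0.64.

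The largest changes were in the malic enzymes, which convert malate to pyruvate. ME1 encodes the cytosolic enzyme, a source of NADPH. Its level was 46.1 and 50.7 CPM in the KO libraries and 102.1 and 91.5 CPM in the WT libraries. Both KO values were under both WT values, and the mean fell from 96.8 ± 7.45 to 48.4 ± 3.23 CPM (SD, n = 2 each). The log2 fold change was -1.0 (SE 0.08, edgeR adjusted p 1.9e-12), which is a 2.0-fold lower level.

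ME2 encodes a mitochondrial malic enzyme that uses NAD. Its level was 27.6 and 28.9 CPM in KO and 63.9 and 59.1 CPM in WT libraries. The groups were again far apart, and the level was 2.18-fold lower in KO cells (log2 fold change -1.13, SE 0.10, edgeR adjusted p 4.25e-12). Per length, ME1 was the more abundant of the pair in every library, with an ME1 to ME2 ratio of RPKM of 1.57 and 1.65 in KO and 1.5 and 1.45 in WT cells. Each KO ratio was above each WT ratio, though the ratio moved little while both levels fell.

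The 250 bases before the annotated starts of both genes (RefSeq, GRCh38.p14) are shown because ME1 and ME2 fell by like amounts. They were searched on both strands for TGACNNNGC, the core of the antioxidant response element bound by NRF2, of which ME1 is a known target. The motif overlaps some sites of the AP-1 family. The ME1 sequence is chr6:83431052-83431301 on the minus strand and the ME2 sequence is chr18:50878868-50879117 on the plus strand. Capitals mark the match.
ME1: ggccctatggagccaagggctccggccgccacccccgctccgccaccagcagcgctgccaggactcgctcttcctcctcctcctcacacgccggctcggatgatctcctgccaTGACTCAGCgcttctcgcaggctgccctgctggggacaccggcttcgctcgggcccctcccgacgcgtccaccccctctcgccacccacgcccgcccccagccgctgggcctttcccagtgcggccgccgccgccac
ME2: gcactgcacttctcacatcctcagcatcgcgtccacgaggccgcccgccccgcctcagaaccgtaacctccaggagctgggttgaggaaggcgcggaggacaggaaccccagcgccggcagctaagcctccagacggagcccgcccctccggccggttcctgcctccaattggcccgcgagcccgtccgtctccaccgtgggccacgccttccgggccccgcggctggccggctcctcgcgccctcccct
ME1 held 1 match, 137 bases before its start, and ME2 held none. The motif was present in 5 of the 34 members in the promoter table, namely MPC1, IDH1, IDH3G, ME1 and GOT2, or 14.7%. This compares with 13.2% of all 27305 genes in the table. Of the 5, ME1, IDH1 and GOT2 were lower in KO cells, IDH3G was higher and MPC1 was not called. A match is a description of the letters only.

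ME2 lies on chromosome 18 and ME1 on chromosome 6, and the other genes of these chromosomes are given beside them. On chromosome 18, 195 genes were tested, of which 181 had a log2 fold change below 0, with a median of -0.76. The 30 tested genes within 5 Mb of ME2 had a median of -0.90. ME2 lay 0.36 below its chromosome's median on the log2 scale, and 40 genes of the chromosome lay lower. Quartiles of the chromosome were -1.04 and -0.46, so ME2 lay below the lower one and within the range of the chromosome.

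On chromosome 6 the median over 753 tested genes was -0.18, and 500 of them were below 0. ME1 lay further from its neighbours, 0.82 under the median of the chromosome, with 48 genes lower and a median of -0.35 over the 35 genes within 5 Mb. The 36 tested members and PDK4 lie on 19 chromosomes, and apart from chromosome 18 the chromosome medians ran from -0.18 to 0.10. Medians within 5 Mb of other members reached beyond this range. They were 0.29 around PC, -0.22 around IDH1, -0.23 around MPC2 and -0.48 around GLUD1, which itself was at -0.07. The part of position in the levels of ME1, ME2 and the other members was not tested.

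**Figure D2:**
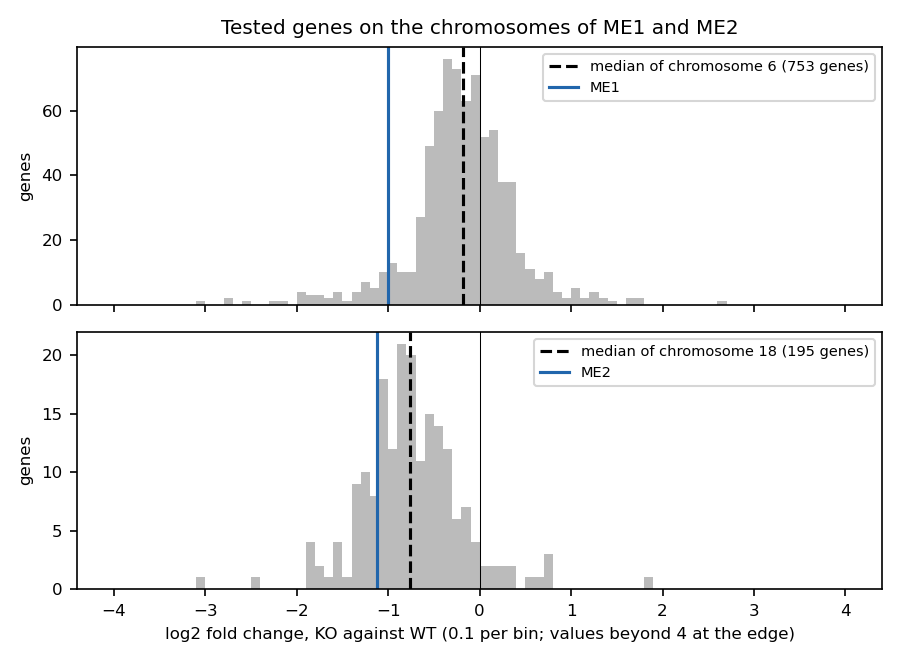
Number of tested genes by log2 fold change in KO against WT cells on chromosome 6 (upper panel) and chromosome 18 (lower panel), in bins of 0.1, with the chromosome median dashed and the malic enzyme gene as a blue line. The median of chromosome 18 lies at -0.76 with ME2 at -1.13 under the lower quartile of -1.04, while ME1 at -1.0 lies in the left tail of chromosome 6.

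Pyruvate carboxylase, encoded by PC, makes oxaloacetate from pyruvate and is the main refilling step from glucose. PC was at 38.9 and 42.8 CPM in KO and 31.7 and 28.6 CPM in WT libraries. It rose (log2 fold change 0.44, SE 0.10, edgeR adjusted p 8.4e-04), with no overlap between groups. PC thus moved in the opposite direction to the malic enzymes. The 211 tested genes within 5 Mb of PC had a median log2 fold change of 0.29.

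Of the members that link glutamate to the cycle, GOT2 fell and GOT1 and GLUD1 were not called. GOT2 encodes the mitochondrial aspartate aminotransferase of the malate-aspartate shuttle. It was at 180.4 and 180.9 CPM in KO and 206.6 and 209.2 CPM in WT libraries. The libraries of a group were almost equal, and the decrease was 1.15-fold (log2 fold change -0.20, SE 0.06, edgeR adjusted p 0.00511). It was not called without WT replicate 1 (adjusted p 0.0596) or WT replicate 2 (adjusted p 0.0723).

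The cytosolic partner GOT1 was at 103.3 and 99.9 CPM in KO and 100.1 and 86.6 CPM in WT libraries, which overlap (log2 fold change 0.12, edgeR adjusted p 0.199). GLUD1, glutamate dehydrogenase, was at 268.5 and 256.7 CPM in KO and 278.4 and 274.1 CPM in WT libraries and was not called (log2 fold change -0.07, edgeR adjusted p 0.321). Per length GOT2 exceeded GOT1 in every library, with a GOT2 to GOT1 ratio of 1.38 and 1.43 in KO against 1.63 and 1.91 in WT cells. Each KO ratio was under each WT ratio. No p is given for ratios, since 2 libraries against 2 cannot give an exact permutation p under 0.333. Reads shared by GLUD1 and its near-identical copies GLUD2 and GLUD1P3 are uncertain, and these copies held at most 75 counts in a library.

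The pyruvate dehydrogenase kinases phosphorylate the complex and shut it off. PDK1 was the highest member of the family per length in every library. Its level was 13.9 and 17.5 CPM in KO and 26.4 and 21.3 CPM in WT libraries. The groups did not overlap, and the KO mean was 15.7 ± 2.55 CPM against 23.9 ± 3.62 CPM (SD, n = 2 each). The gene fell 1.53-fold (log2 fold change -0.61, SE 0.14, edgeR adjusted p 6.58e-04).

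PDK2 stood at 8.29 and 7.18 CPM in KO and 7.16 and 7.11 CPM in WT libraries, a log2 fold change of 0.12 (SE 0.20, edgeR adjusted p 0.69). PDK3 held 13 and 29 counts in KO and 11 and 12 in WT libraries. KO replicate 2 alone was high, and its log2 fold change of 0.64 had an SE of 0.60 (edgeR adjusted p 0.434). Without KO replicate 2 it was -0.15. PDK4, the starvation-induced kinase, held 1 and 1 count in KO and 1 and 3 in WT libraries, which is at or under the floor of 3 counts, so that neither a test nor a fold is given.

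Within the family, PDK1 made up 62.5% and 66.0% of the summed RPKM in KO cells and 78.2% and 73.5% in WT cells. PDK2 made up 32.3% and 23.5% in KO and 18.4% and 21.3% in WT cells. The sum itself was 7.26 and 8.69 RPKM in KO and 11.6 and 9.97 RPKM in WT cells. All KO sums and PDK1 shares were under the WT values, and these values carry no test. Of the opposing phosphatases, PDP1 was at 153.6 and 155.1 CPM in KO against 170.5 and 169.8 CPM in WT libraries (log2 fold change -0.14, edgeR adjusted p 0.0625). PDP2 was lower in level, with a log2 fold change of -0.25 (SE 0.13, edgeR adjusted p 0.13). Neither was called, although both KO values were under both WT values in each. The PDP1 to PDP2 ratio of RPKM was 7.3 and 7.96 in KO and 7.43 and 6.71 in WT cells, which overlap. PDP1 was called lower with library totals (log2 fold change -0.21, adjusted p 0.00483) and with limma on RPKM, and PDP2 with library totals (adjusted p 0.0484), while PDP1 was at 0.055 with GC and length offsets.

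**Figure D3:**
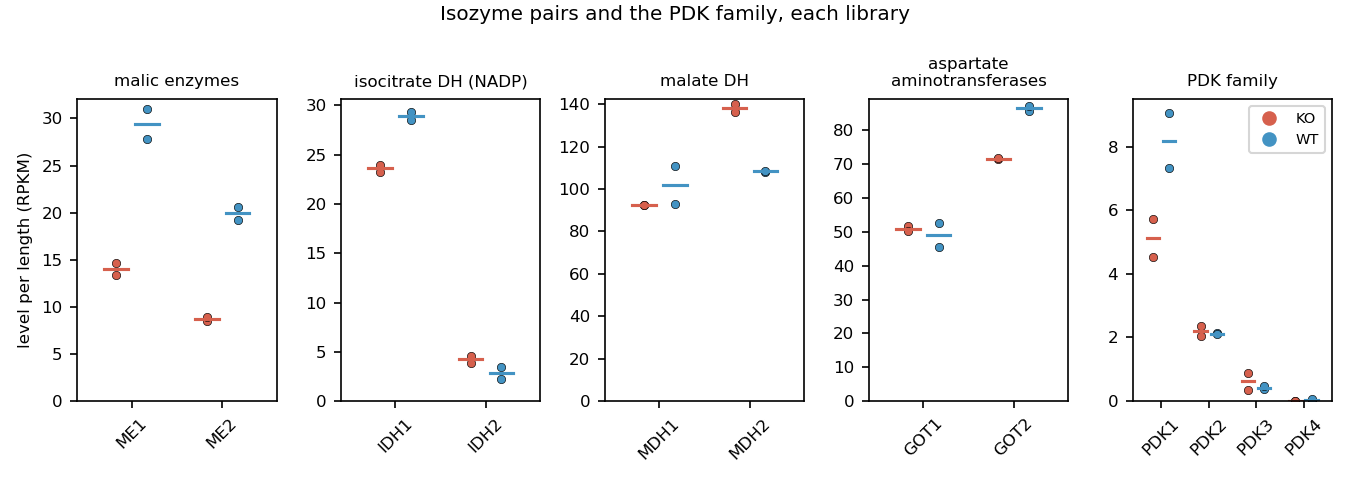
Level per length (RPKM as deposited, linear axes from 0) of 4 isozyme pairs and of the PDK family in each library, with points for libraries and lines for group means (KO red, WT blue). ME1 and ME2 both fall, MDH2 is higher and MDH1 is not, GOT2 is lower and GOT1 is not, and PDK1 is the highest PDK in every library.

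PDK1 is a known target of the hypoxia response. A list of 18 genes of that response was therefore described beside it, with 3 higher and 11 lower in KO cells, or 16.7% and 61.1% against the background of 20.4% and 19.1%, and a median log2 fold change of -0.40. The median over all genes was 0.00. With GC and length offsets 3 were higher and 9 lower, beside 2672 higher and 2397 lower among all genes, and the median of the list was -0.20. The list was chosen with the decrease of some of its members known and is not independent evidence of a direction. CA9, a surface carbonic anhydrase, fell from 16.2 and 19.8 CPM in WT to 0.92 and 0.37 CPM in KO libraries (log2 fold change -4.76, edgeR adjusted p 2.27e-16). EGLN3, an oxygen-sensing hydroxylase, fell by 2.94 and the stress-response gene NDRG1 by 2.09 on the log2 scale. P4HA1, a collagen prolyl hydroxylase, fell by 1.15 and the mitophagy receptor BNIP3L by 1.0. The 3 genes of the list that rose were VEGFA, ADM and PFKFB3.

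The 250 bases before the second of 2 annotated starts of PDK1 (RefSeq, GRCh38.p14, chr2:172555840-172556089, plus strand) are shown because they hold the core letters of the hypoxia response element. The motif searched was ACGTG on both strands, which overlaps the E-box CACGTG. Capitals mark its reverse complement.
PDK1: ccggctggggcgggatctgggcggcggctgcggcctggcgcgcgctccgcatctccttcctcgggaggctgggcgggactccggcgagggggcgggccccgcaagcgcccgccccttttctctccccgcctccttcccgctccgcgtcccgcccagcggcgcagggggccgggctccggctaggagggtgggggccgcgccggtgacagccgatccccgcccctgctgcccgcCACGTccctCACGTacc
The matches began 8 and 17 bases before the start, and the first annotated start had none. ACGTG was present in 10 of the 34 members in the table, or 29.4%, and in 21.7% of all genes in it. The 10 were PDHB, DLAT, PDK1, PDK2, PDK3, PDP2, IDH1, IDH3G, PC and GOT2. Of these, IDH3G and PC rose and PDK1, IDH1 and GOT2 fell, so the letters occurred in genes of either direction.

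At the entry of pyruvate, the carrier subunits and the dehydrogenase complex were measured by 6 genes, of which 1 rose and 1 fell. Each is 16.7% of the 6, against 20.4% higher and 19.1% lower over all tested genes. MPC2, a subunit of the carrier, was at 17.2 and 17.3 CPM in KO and 24.2 and 21.9 CPM in WT libraries. It fell 1.34-fold (log2 fold change -0.42, SE 0.13, edgeR adjusted p 0.00974), with no overlap. The call was lost without WT replicate 1 (adjusted p 0.136) and with DESeq2 (adjusted p 0.0909).

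MPC1, the partner subunit, was at 24.9 and 20.6 CPM in KO and 20.2 and 20.5 CPM in WT libraries and was not called (log2 fold change 0.17, edgeR adjusted p 0.335). Per length, the MPC2 to MPC1 ratio was 0.306 and 0.37 in KO and 0.529 and 0.473 in WT cells. Both subunits are needed for the carrier. Per length MPC2 was the less abundant transcript in all 4 libraries, while in CPM it was above MPC1 in both WT libraries.

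PDHA1 encodes the catalytic alpha subunit of pyruvate dehydrogenase, the subunit that the kinases phosphorylate. It was at 66.5 and 67.7 CPM in KO and 55.5 and 52.2 CPM in WT libraries, a rise of 24.5% (log2 fold change 0.32, SE 0.08, edgeR adjusted p 0.00233). Without WT replicate 2 the adjusted p was 0.0525. The beta subunit gene PDHB and the genes of the other components, DLAT and DLD, were not called and had log2 fold changes between -0.09 and 0.06, whose signs changed with the scaling or the offsets used. The PDHA1 to PDHB ratio of RPKM was 1.54 and 1.55 in KO and 1.32 and 1.27 in WT cells. PDHX, a further component of the complex from the list of associated genes, was named after its values were seen. It fell from 52.8 and 56.4 CPM in WT to 41.5 and 41.6 CPM in KO libraries (log2 fold change -0.39, SE 0.09, edgeR adjusted p 5.92e-04).

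From citrate to succinyl-CoA, the NAD-dependent isocitrate dehydrogenase of the cycle showed changes in its non-catalytic subunits. IDH3G was at 69.7 and 66.9 CPM in KO and 49.7 and 44.2 CPM in WT libraries. The level rose 1.45-fold (log2 fold change 0.54, SE 0.09, edgeR adjusted p 4.1e-06), and both KO libraries were well above both WT libraries. IDH3B, the other subunit of this kind, was at 73.0 and 65.1 CPM in KO and 58.4 and 54.1 CPM in WT libraries (log2 fold change 0.30, SE 0.09, edgeR adjusted p 0.00502).

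IDH3A, the catalytic subunit, did not follow, with 54.5 and 48.7 CPM in KO and 60.5 and 53.5 CPM in WT libraries (log2 fold change -0.14, edgeR adjusted p 0.216). The IDH3G to IDH3A ratio of RPKM was 3.08 and 3.31 in KO and 1.98 and 1.99 in WT cells. For IDH3B to IDH3A it was 3.41 and 3.4 in KO and 2.46 and 2.58 in WT cells. The libraries within a group were thus close and the groups apart. These ratios carry no correction for GC content, which was 61.1% for IDH3G, 54.6% for IDH3B and 43.7% for IDH3A. With GC and length offsets the log2 fold changes lay nearer to each other, at 0.239 for IDH3G, 0.092 for IDH3B and -0.015 for IDH3A. The part of base composition in the ratios was not tested. The IDH3B call was lost without KO replicate 1 (adjusted p 0.0876), without WT replicate 2 (adjusted p 0.0885) and with GC and length offsets (log2 fold change 0.09, adjusted p 0.393).

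Of the NADP-dependent isozymes, the mitochondrial IDH2 rose and the cytosolic IDH1 fell. IDH2 was at 10.7 and 12.6 CPM in KO and 6.0 and 9.04 CPM in WT libraries, from 93 to 207 counts. It rose 1.56-fold (log2 fold change 0.64, SE 0.20, edgeR adjusted p 0.00834), and the groups did not overlap, but the WT libraries lay further from each other than the lower KO library lay from the higher WT one. The call was lost without WT replicate 1 (log2 fold change 0.37, adjusted p 0.224) and without KO replicate 2 (adjusted p 0.0634), and without WT replicate 2 the log2 fold change was 0.96. It was also lost with DESeq2 (adjusted p 0.0954) and with limma on RPKM (adjusted p 0.0898 and 0.0881 for pseudocounts of 1 and 0.1).

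IDH1 was at 60.1 and 58.0 CPM in KO and 70.0 and 67.8 CPM in WT libraries, a 1.17-fold decrease (log2 fold change -0.22, SE 0.08, edgeR adjusted p 0.0264). It was not called without KO replicate 2 (adjusted p 0.086), without WT replicate 1 (adjusted p 0.2) or without WT replicate 2 (adjusted p 0.0796), nor with DESeq2 (adjusted p 0.126), no filter (adjusted p 0.0658) or GC and length offsets (adjusted p 0.141). IDH1 was the more abundant isozyme per length in all libraries, with an IDH1 to IDH2 ratio of 6.18 and 5.08 in KO and 12.9 and 8.28 in WT cells. No KO ratio reached a WT ratio, a separation that 68.1% of all tested genes showed as single genes. GC content was 43.1% for IDH1 and 55.9% for IDH2, and the part of base composition in this ratio was not tested.

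DLST, the succinyltransferase of the 2-oxoglutarate dehydrogenase complex, rose by 24.7%, from 102.1 and 105.7 CPM in WT to 127.2 and 131.8 CPM in KO libraries (log2 fold change 0.32, SE 0.07, edgeR adjusted p 1.72e-04). CS, citrate synthase, ACO1, the cytosolic aconitase, and OGDH, the first component of the complex that holds DLST, were not called, with log2 fold changes between 0.10 and 0.12. CS was among the most abundant members, at 301.8 to 335.1 CPM, and its SE of 0.05 was the smallest of the list. In succinyl-CoA ligase, which makes the nucleotide triphosphate of the cycle, SUCLA2, SUCLG1 and SUCLG2 were not called and had log2 fold changes of 0.06, -0.02 and 0.24, of which the first 2 changed sign under other settings. SUCLG2 was at 33.9 and 33.6 CPM in KO and 28.8 and 28.5 CPM in WT libraries and missed the threshold (edgeR adjusted p 0.0758).

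Succinate dehydrogenase is both a cycle enzyme and complex II of the respiratory chain. SDHA, its flavoprotein and catalytic subunit, was at 269.2 and 244.4 CPM in KO and 197.3 and 193.8 CPM in WT libraries. The groups did not overlap, and the level rose 1.31-fold (log2 fold change 0.39, SE 0.06, edgeR adjusted p 1.22e-06). SDHB, the iron-sulfur subunit, and the membrane anchors SDHC and SDHD were not called, with log2 fold changes of 0.15, 0.08 and 0.07. The SDHA to SDHB ratio of RPKM was 0.754 and 0.776 in KO and 0.631 and 0.665 in WT cells. Reads shared by SDHA and its pseudogenes are uncertain. SDHAP1 held between 252 and 319 counts and SDHAP3 between 31 and 60, and the KO and WT levels of each overlapped. The part of shared reads in the SDHA level was not tested.

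MDH2, the mitochondrial malate dehydrogenase that closes the cycle, was at 317.4 and 308.5 CPM in KO and 233.8 and 233.2 CPM in WT libraries. Both KO libraries were clearly higher, and the increase was 1.34-fold (log2 fold change 0.42, SE 0.06, edgeR adjusted p 8.58e-08). MDH1, the cytosolic isozyme, was at 156.3 and 156.0 CPM in KO and 150.1 and 178.2 CPM in WT libraries, which overlap (log2 fold change -0.07, edgeR adjusted p 0.44). Per length the MDH2 to MDH1 ratio was 1.52 and 1.48 in KO and 1.16 and 0.977 in WT cells. Without WT replicate 2 the log2 fold change of MDH1 was 0.06.

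FH, fumarase, was at 125.4 and 124.8 CPM in KO and 116.2 and 107.2 CPM in WT libraries (log2 fold change 0.16, SE 0.07). Its edgeR adjusted p of 0.0494 was the closest to the threshold among the called members. It was lost on leaving out any of the 4 libraries, with adjusted p between 0.0549 and 0.43.

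**Figure D4:**
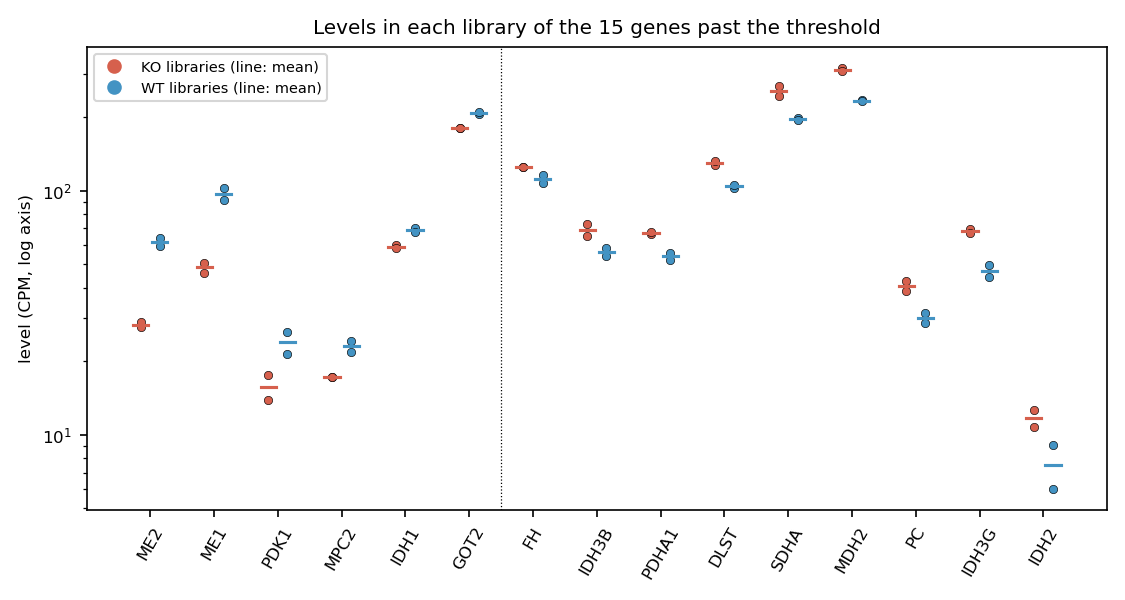
Level (CPM, log axis) in each KO and WT library of the 15 genes past the threshold, with lines for group means and the genes lower in KO cells left of the dotted line. The libraries of the 2 groups do not overlap in any of the 15. The 15 were called on these same libraries, so this is no further support for the calls. Over all tested genes 68.1% had no overlap. On this log axis the gap between means is widest for ME2 and ME1.

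The called members differed in base composition, a property not used to choose them. The GC content of the longest transcript had a median of 52.3% over the 9 higher members and of 41.4% over the 6 lower ones, and of 43.8% over the 21 not called. The same order was seen over all tested genes, with medians of 55.4% for the higher and 42.6% for the lower ones. Spearman's rho between GC content and log2 fold change was 0.63 over the 36 members and 0.36 over all tested genes with a GC content, which come from the same 4 libraries and are given as a description.

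After offsets for GC content and length in each library, 10 members were higher and 5 lower, with 2672 higher and 2397 lower over all genes. DLD rose to a log2 fold change of 0.25 (adjusted p 8.5e-04) and SUCLG2 to 0.36 (adjusted p 0.00655) and both were called, while IDH3B and IDH1 were not. ME1, at -0.80, and ME2, at -0.95, remained the largest decreases. PDK1 was at -0.43 (adjusted p 0.0151), IDH3G at 0.24 (adjusted p 0.0217) and PC at 0.25 (adjusted p 0.0471), all nearer to 0 than before. GOT2 moved the other way, to -0.28.

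**Figure D5:**
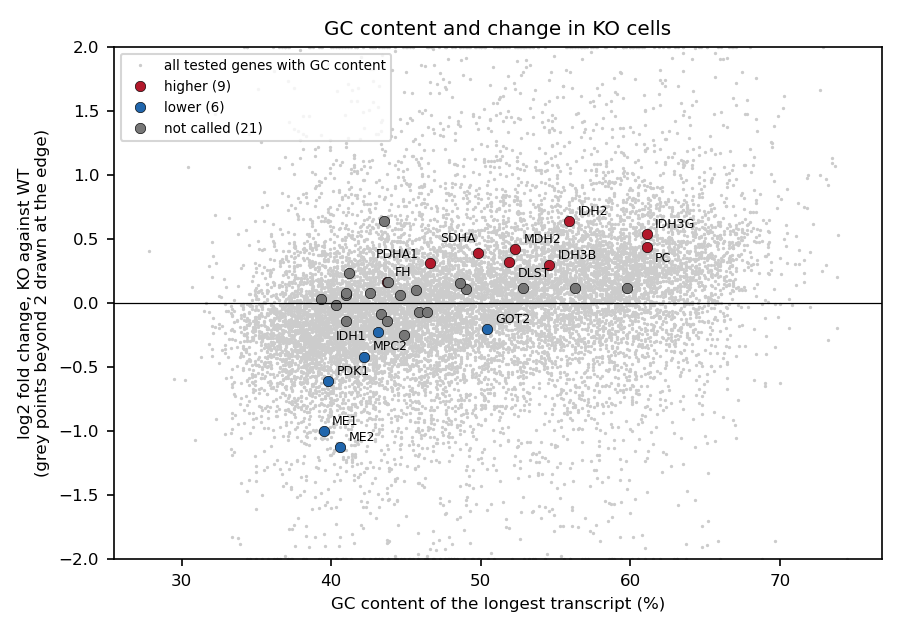
Log2 fold change in KO against WT cells by GC content of the longest transcript (%), for all tested genes with a GC content (grey) and for the members, coloured by call. Members lower in KO cells lie mostly under 45% GC with GOT2 as the exception, and members higher in KO cells lie between 43.7% and 61.1%.

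Other genes of these pathways were taken as a list of 37 associated genes found in the tables, covering further cycle and pyruvate enzymes, lipoylation and complex II assembly, carriers, propionyl-CoA use and mitochondrial deacylases. Of the 35 tested, 5 were higher and 5 lower in KO cells, or 14.3% each way, with a median log2 fold change of 0.04. Both shares were under the background of 20.4% and 19.1% in this setting. With GC and length offsets 4 were higher and 9 lower, beside 2672 higher and 2397 lower among all genes. SDHAF1, an assembly factor for complex II, rose from 4.71 and 6.60 CPM in WT to 8.34 and 8.83 CPM in KO libraries (log2 fold change 0.61, SE 0.22, edgeR adjusted p 0.0235), a value that dropped to 0.20 with GC and length offsets (adjusted p 0.507).

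NNT, the mitochondrial transhydrogenase that makes NADPH from NADH, fell from 44.5 and 48.5 CPM in WT to 30.2 and 32.6 CPM in KO libraries (log2 fold change -0.57, SE 0.10, edgeR adjusted p 1.61e-05). DHTKD1, the 2-oxoadipate dehydrogenase that shares DLST with the cycle, fell by 0.47 (edgeR adjusted p 7.77e-06). PDPR, the regulatory subunit of the pyruvate dehydrogenase phosphatase, fell by 0.45 (edgeR adjusted p 2.16e-04), and reads shared with its copies are uncertain.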

How the data were processed

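RNA from 2 KO and 2 WT libraries was compared, grouped by the genotype in the labels. The authors deposited raw read counts for each gene and RPKM values, which equal the counts over one length per gene and the library total to within 1.8e-05%. The submitters' processing notes name CASAVA, STAR 2.5, HTSeq, edgeR 3.16.5, DESeq2 and hg19. The use of strand is not given in the sources used here, so reads of overlapping or antisense genes cannot be told apart. The study's methods name a negative binomial test without pairing.

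From the deposited counts, edgeR 4.0.16 in R 4.3.3 was run on all genes with filterByExpr on the groups, TMM factors (0.975 to 1.03), glmQLFit and glmQLFTest with group only, and Benjamini-Hochberg adjustment over 15104 genes, at a threshold of 0.05. CPM use TMM-scaled totals, and values are means ± SD over 2 libraries. Levels of different genes were compared in RPKM, and ratios of RPKM carry no correction for GC content. Depth per library is given as total counts, 3 counts were taken as the floor, and floors cover counting error only. The biological coefficient of variation was 5.88%. Replicate pairs differed by more than sampling noise (chi-square per degree of freedom 4.39 for KO and 3.48 for WT).

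Chromosomes and GC content came from GENCODE 29 on GRCh38 by Ensembl identifier, with a GC content for 97.2% of tested genes, and promoters from RefSeq on GRCh38.p14. Coordinates were never mixed with hg19. GC and length offsets were splines with 4 degrees of freedom per library, fitted to genes above an average log2 CPM of 2.

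Alternatives were the exact test of edgeR, DESeq2 1.42.0, its size factors passed to edgeR, library totals only, no filter, a minimum of 10 counts per library, a replicate block, limma 3.58.1 on log2(RPKM + 1) and log2(RPKM + 0.1), the study's thresholds (unadjusted p under 0.05 with a fold over 1.25 or under 0.75), GC and length offsets, and leaving out each library. The test was checked on simulated counts. Values per library are given for called members with a fold of at least 1.5, for the PDK genes and for isozyme pairs, with up to 3 further genes per step and 5 per other list. Further members described outside this rule were chosen after their values were seen. The members and lists were chosen with earlier results of these data known. Some genes of the associated and marker lists are not reported here by name.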

Additional observations from a re-analysis of the deposited data

How the results depend on the processing

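Of the 15 called members, DLST, IDH3G, MDH2, ME1, ME2, PC, PDK1 and SDHA kept their call in all 15 alternatives that give a value per gene, with log2 fold changes of -1.08 to -0.80 for ME1, -1.20 to -0.95 for ME2 and -0.78 to -0.43 for PDK1. FH kept its call in 4 of 15. No called member changed sign, and calls were lost in 15 of 60 values on leaving out a library and in 15 of 165 under the other alternatives. The cause of the losses was not tested. Depth limits PDK3 and PDK4.

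The study's thresholds gave 5 members higher and 4 lower, 4 associated genes higher and 3 lower, and 2565 higher and 1847 lower among all genes. DESeq2 gave 7 members higher and 4 lower, 3 associated genes higher, and 2165 higher and 1881 lower among all genes. Associated genes lower numbered 8 with library totals only (3613 among all genes) and 9 with GC and length offsets (2397 among all genes). The members' median log2 fold change, 0.088, was 0.019 with library totals and 0.016 in both limma fits.

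Members that were not called gained a call in 2 of 84 values on leaving out a library, which were OGDH (adjusted p 0.0126) and SDHB (adjusted p 0.00303) without KO replicate 2, and in 10 of 231 under the other alternatives. The latter were DLD and SUCLG2 with GC and length offsets, GLUD1, PDP1 and PDP2 with library totals, PDP1 with limma, and OGDH, PDP1 and SDHB with crossed numbers. Some uncalled members changed sign. With GC and length offsets DLAT was at 0.055, GOT1 at -0.031, PDK2 at -0.058, PDP1 at 0.055, SDHB at -0.010 and SUCLG1 at 0.075. With library totals DLD was at -0.037, PDHB at -0.007 and SUCLA2 at -0.010. With limma the values were -0.036 and -0.037 for DLD, -0.006 for PDHB and -0.011 for SUCLA2.

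Leaving out each library gave 6 to 9 members higher and 3 to 6 lower, where 3 was without WT replicate 1, and a median of 0.040 to 0.108, where 0.040 was without KO replicate 1. It gave 3 to 6 associated genes higher and 4 to 6 lower, and 2410 to 2915 genes higher and 2011 to 2751 lower among all genes. Log2 fold changes then ran from -0.183 to 0.057 for MDH1, -0.152 to 1.164 for PDK3, -0.032 to 0.179 for SDHC, -0.005 to 0.165 for SDHD, -0.012 to 0.129 for SUCLA2 and -0.053 to 0.017 for SUCLG1.

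Libraries of the same number did not deviate together (correlation -0.0217 over all tested genes). With a replicate block 8 members were higher and 6 lower, with 3009 genes higher and 2808 lower among all genes, and FH was not called (adjusted p 0.0724). With crossed numbers, chosen after seeing the data because the correlation was -0.121 over highly expressed genes, 11 members were higher and 7 lower, with 3245 higher and 3054 lower among all genes.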
